A study of Mus musculus with 30 samples.

Results

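The genes described here were 4 simple keratins (Krt7, Krt8, Krt18 and Krt19) and 6 genes used as markers of mesothelium (Msln, Wt1, Upk3b, Upk1b, Lrrn4 and Muc16). They were taken by gene symbol and make up 10 of the 48440 genes counted in 30 mouse tumors. All 10 were found in the count table, and 5 of them (Krt7, Krt8, Krt18, Krt19 and Msln) had enough counts to pass the filter that kept 16862 genes. The genes were chosen because earlier results on these tumors had shown some of them to differ between lines, so their levels by line are given as a description without a test.

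The tumors were fibrosarcomas grown in mice from 5 cell lines, each derived from a single tumor induced with the carcinogen methylcholanthrene (MCA), and cells carrying the leukocyte antigen CD45 had been removed with beads before RNA extraction. The paper describes transplanting such lines into C57BL/6 mice, with or without an antibody that depletes cells carrying the marker NK1.1. Its account of the RNA sequencing does not name the hosts of these tumors. There were 4 tumors of MCA943, 8 of MCA948, 8 of MCA969, 6 of MCA970 and 4 of MCA972. The mouse strain is labelled Ncr1Cre for the MCA943 tumors and Ncr1Cre R26DTA for the other 26, and the labels do not say whether this is the mouse in which a line arose or the host of the tumor. Ncr1Cre expresses Cre recombinase from the gene of NKp46, a receptor of natural killer (NK) cells and related innate lymphoid cells, and R26DTA makes the cells that carry Cre produce diphtheria toxin A. The label for NK cell sensitivity is No for MCA943 and Yes for MCA948, MCA970 and MCA972. Of the MCA969 tumors, 6 are labelled No, and 2, W-1D and W-2D, are labelled Yes. Titles also carry the letter W or a and a further code such as R, neither of which the labels explain. The design text speaks of wild-type and NK cell deficient hosts without tying either to a letter. Each line is a single derivation, so a difference between lines may belong to that derivation.

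Keratins are the intermediate filament proteins of epithelial cells and assemble as obligate pairs of a type I and a type II chain. In simple, single-layered epithelia the usual pair is Krt8 (type II) with Krt18 (type I), and Krt7 (type II) and Krt19 (type I) are added in ducts and mesothelium. Mesothelium, the sheet that lines the body cavities, makes these keratins together with mesothelin (Msln), the transcription factor Wt1, the uroplakins Upk3b and Upk1b, the leucine-rich repeat protein Lrrn4 and the mucin Muc16, whose product binds mesothelin. Fibroblasts and fibrosarcomas rely on vimentin instead, although simple keratins are known to be expressed in some mesenchymal tumors.

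Krt8 and Krt18 lie next to each other on chromosome 15, at the end of the type II keratin cluster. Krt8 is annotated at chr15:101996698-102004482 on the minus strand and Krt18 at chr15:102028180-102032027 on the plus strand (GRCm38), so that they point away from each other with 23698 bases and no counted gene between their starts. Krt7 lies in the same cluster at chr15:101411043-101430313, Krt19 on chromosome 11 and Msln on chromosome 17. The genes Gm671 and Gm36026 lie antisense over Krt7 and Krt8, and since the strand setting of the counting is not given, reads of such partners cannot be told apart. The 250 bases before the RefSeq starts of Krt8 and Krt18 (GRCm38.p6) are shown because both neighbors were high in MCA969 and Krt18 without comparable Krt8 in MCA948. Capitals mark the match to the letters searched.
Krt8, chr15:102004343-102004592, minus strand: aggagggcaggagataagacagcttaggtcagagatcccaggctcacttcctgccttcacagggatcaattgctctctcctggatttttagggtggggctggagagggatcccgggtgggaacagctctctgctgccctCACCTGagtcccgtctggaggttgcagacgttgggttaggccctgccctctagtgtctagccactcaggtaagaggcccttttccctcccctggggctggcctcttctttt
Krt18, chr15:102027966-102028215, plus strand: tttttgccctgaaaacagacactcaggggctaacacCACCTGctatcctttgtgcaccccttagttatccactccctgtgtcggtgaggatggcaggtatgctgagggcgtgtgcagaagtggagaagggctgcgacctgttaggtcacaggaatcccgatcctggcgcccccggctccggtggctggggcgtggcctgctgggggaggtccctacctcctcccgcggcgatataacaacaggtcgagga
Both strands were searched for the core promoter element TATAAA, for the letters GGGCGG bound by Sp1-type factors, for the promoter element CCAAT, for the E-box form CACCTG and for the AP-1 element TGANTCA. Each of these 2 windows held CACCTG once, beginning 111 bases before the RefSeq start of Krt8 and 214 bases before that of Krt18, and neither held any of the other motifs. The RefSeq starts differ from the annotated starts given above, and part of each window lies within the gene as annotated. The CACCTG of the Krt8 window lies in that part, and the CACCTG of the Krt18 window lies before the annotated start. CACCTG was present in 17.2% of the 32851 windows of this length, TATAAA in 12.4%, GGGCGG in 32.7%, CCAAT in 33.8% and TGANTCA in 6.75%. A match of letters is a description and does not show binding. RefSeq windows were found for 6 of the 10 genes. That of Krt7, which lies wholly within the gene as annotated, held 4 GGGCGG and 1 CACCTG, and no 2 matches overlapped.

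The 10 genes did not rise and fall as a single program across the lines. The means of Krt8, Krt19 and Msln were higher in MCA943, MCA948 and MCA969 than in MCA970 and MCA972. Those of Krt18 and Krt7 were not split in this way. MCA969 had high Krt8, Krt18 and Msln; MCA948 had high Krt18 with little Krt8 and a moderate level of Msln; MCA943 had Msln with little of either keratin; MCA970 had a low level of Krt18 and at most a single count of Msln; and MCA972 had the least Krt18 and at most 3 counts of Msln. Krt7 and Krt19 were low, with line means of at most 0.471 and 1.34 CPM, and Wt1, Upk3b, Upk1b, Lrrn4 and Muc16 were close to 0 throughout. Levels are given in CPM, the counts of a gene relative to library size after scaling of each library by edgeR's TMM factors, and libraries held between 27745104 and 46537062 counts. In bulk RNA, a larger share of cells with a transcript and more of the transcript per cell cannot be told apart.

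**Figure D1:**
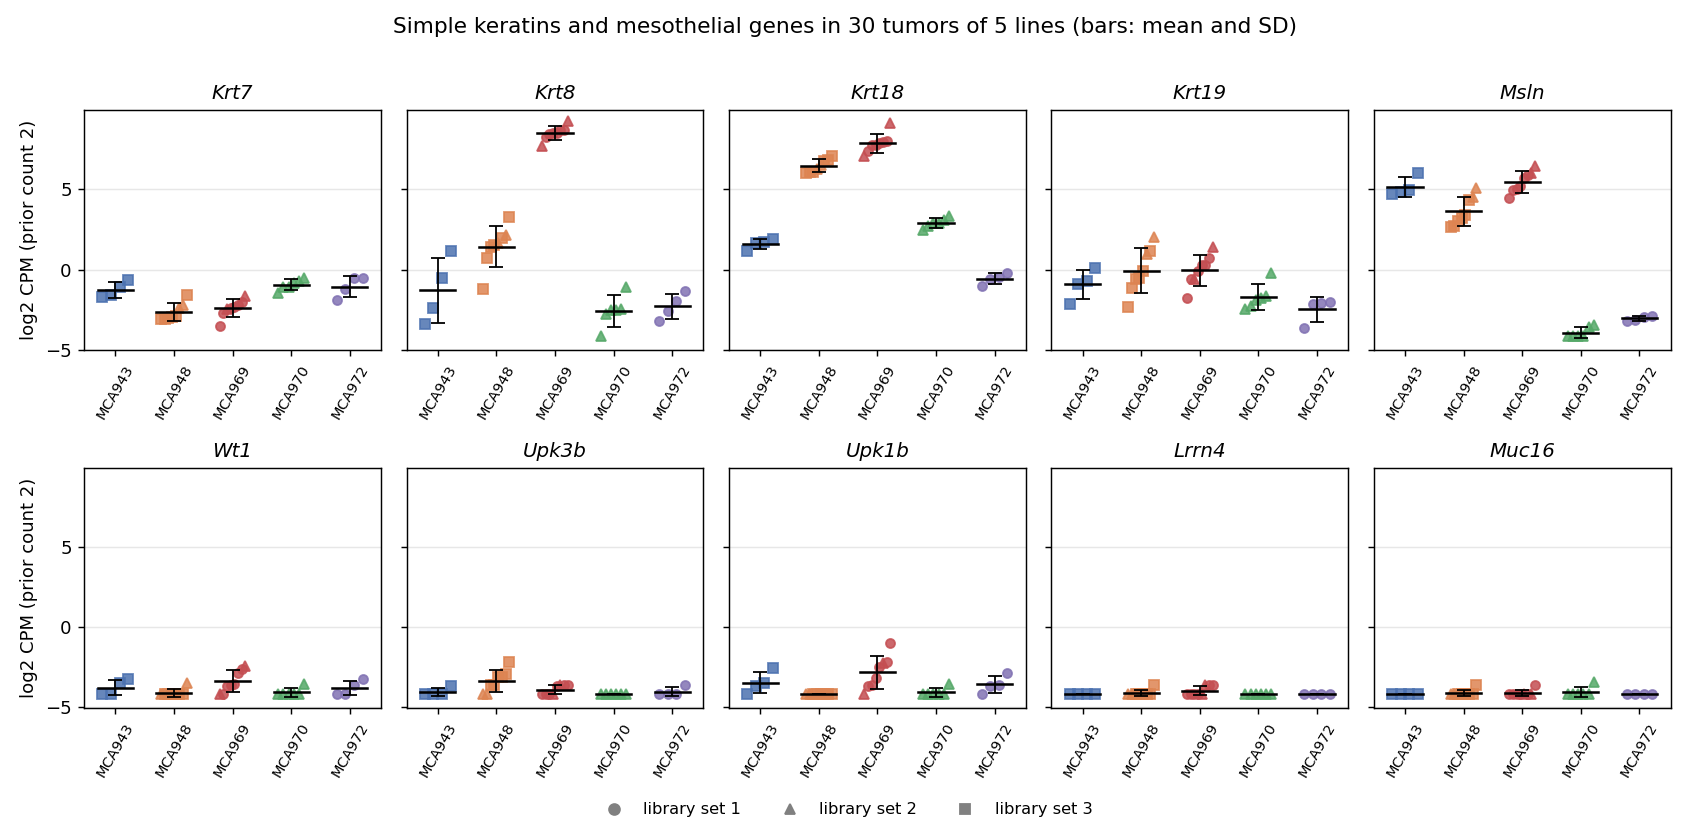
Level of each of the 10 genes in each tumor, as log2 CPM with a prior count of 2, with 5 lines on the horizontal axis. Points are tumors, their shapes the library set (a series of library numbers), and black bars the mean and SD of the line. Krt8, Krt18 and Msln span the panels, each with a different order of lines, whereas the 5 genes of the lower row stay at the bottom of the scale.

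Krt8, the type II chain of the simple epithelial pair, was high in MCA969 alone. Among the 8 MCA969 tumors it ranged from 209 to 625.02 CPM with a median of 370 and a mean of 385 ± 118 (SD, n = 8). The 8 MCA948 tumors ranged from 0.372 to 9.49 CPM with a median of 2.94. In MCA943, tumor W-2G had 0.136 CPM, a-1D 0.641, a-1G 0.0378 and a-R 2.13. The highest MCA943 tumor lay within the range of MCA948, and the lowest had a single count. The 4 MCA972 tumors lay between 0.0521 and 0.334 CPM and the 6 MCA970 tumors between 0 and 0.405, so these lines overlapped each other and MCA943. On the means, Krt8 was 110-fold higher in MCA969 than in MCA948, the line next in order, and the ranges of those lines were far apart. Every MCA969 tumor stood above every tumor of the other lines for Krt8, a pattern shown by 1.56% of the genes past the filter and by 1 of the 5 described here. None of the 5 stood highest in this way in MCA943 (9.76% of genes), MCA948 (3.07%), MCA970 (3.9%) or MCA972 (4.07%).

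Krt18, the type I partner, was graded over the lines. The MCA969 tumors ranged from 135 to 557 CPM with a median of 226 (mean 255 ± 129, SD, n = 8), and the MCA948 tumors from 65.4 to 138 with a median of 84.1 (mean 91.9 ± 26.9, SD, n = 8). Only the highest MCA948 tumor and the lowest MCA969 tumor overlapped. In MCA970 the 6 tumors lay between 5.59 and 10.2 CPM with a median of 7.42. MCA943 followed with 2.20 CPM in W-2G, 3.21 in a-1D, 3.10 in a-1G and 3.62 in a-R. MCA972 was lowest, with 0.682 CPM in a-1, 0.807 in a-1G, 0.612 in a-R and 0.443 in the tumor 2G without a letter. The ranges of MCA948, MCA970, MCA943 and MCA972 did not overlap, and their means fell in steps of 12.04-fold, 2.52-fold and 4.77-fold in that order.

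Because the chains pair in equal numbers, their levels were also set against each other per kilobase of annotated exon. In MCA969, Krt8 was at 213 ± 65.6 CPM per kb and Krt18 at 182 ± 91.8 (SD, n = 8), and the ratio of Krt8 to Krt18 ran from 0.871 to 1.42 over the tumors with a median of 1.27. In MCA948 the same scale gave 1.94 ± 1.503 for Krt8 and 65.7 ± 19.2 for Krt18, and the ratio ran from 0.00418 to 0.0533. The transcripts were thus near balance in each MCA969 tumor, and Krt18 was in excess in each MCA948 tumor. The median ratio was 0.0113 in MCA970, 0.101 in MCA943 and 0.156 in MCA972. Krt8 rested on at most 12 counts a tumor in MCA970 and MCA972 and on 1 to 87 in MCA943. The highest ratio outside MCA969 was 0.456, in the MCA943 tumor a-R, so no tumor of another line reached the lowest MCA969 tumor.

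**Figure D2:**
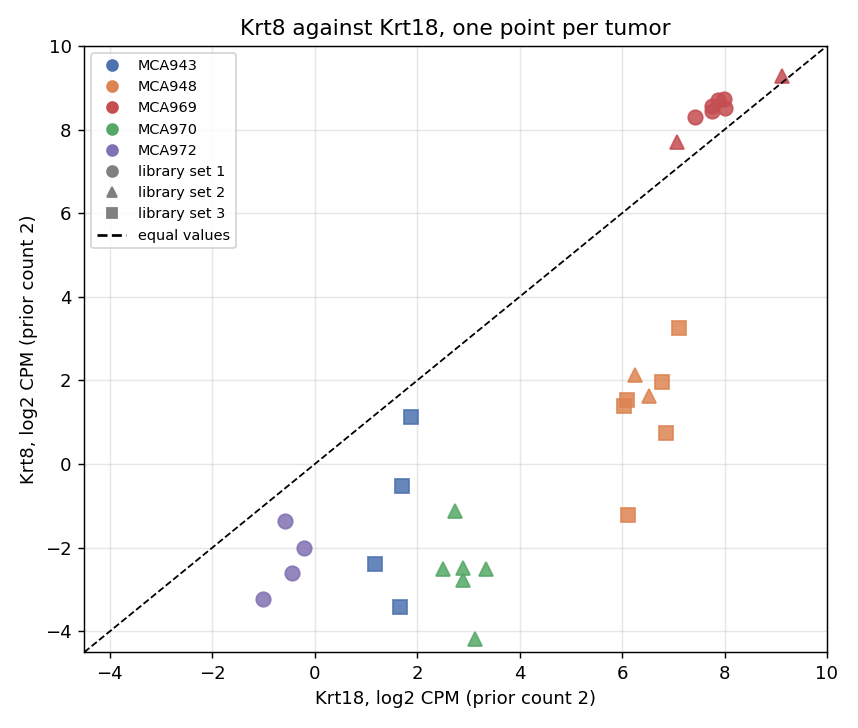
Krt8 (vertical) against Krt18 (horizontal) in each of the 30 tumors, both as log2 CPM with a prior count of 2 and not divided by length. Colors are lines, shapes library sets, and the dashed line marks equal values. The MCA969 tumors lie on or above the line, and the tumors of the other lines lie below it, those of MCA948 at Krt18 levels near MCA969 and Krt8 levels far under it.

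Krt7 and Krt19, the accessory keratins of ducts and mesothelium, gave little signal. Krt7 had between 1 and 23 counts per tumor. Its line means ran from 0.114 CPM in MCA948 and 0.143 in MCA969 to 0.377 in MCA943, 0.461 in MCA972 and 0.471 in MCA970, so the lines with the most Krt18 had the least Krt7. Neighboring lines in this order overlapped. Krt19 had between 1 and 124 counts, with means of 1.34 ± 1.30 CPM in MCA948 (SD, n = 8), 1.11 ± 0.749 in MCA969 (n = 8), 0.550 ± 0.352 in MCA943 (n = 4), 0.296 ± 0.251 in MCA970 (n = 6) and 0.141 ± 0.0785 in MCA972 (n = 4). All neighbors in that order overlapped as well. Krt19 ranged more widely among the MCA948 tumors than among the line means, from 0.140 to 4.06 CPM, and the tumors a-2G and a-R, with 1.88 and 4.06, were from another series of library numbers than the other 6.

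Msln, which encodes the cell surface glycoprotein mesothelin, divided the lines differently from Krt18 and Krt7. By line means, Krt8 and Krt19 also stood higher in MCA943, MCA948 and MCA969 than in MCA970 and MCA972. For both, however, the MCA943 tumors overlapped those of MCA970 and MCA972. In MCA943 it was at 28.7 CPM in W-2G, 31.0 in a-1D, 66.5 in a-1G and 26.4 in a-R. The MCA969 tumors ranged from 21.7 to 88.7 CPM with a median of 44.5, and the MCA948 tumors from 6.19 to 34.2 with a median of 10.05. MCA943 and MCA969 overlapped nearly throughout, and the highest MCA948 tumors reached into both. No MCA970 tumor had more than 1 count and no MCA972 tumor more than 3. Summed over the line, MCA970 had 2 Msln counts (0.00993 CPM, exact Poisson 95% interval 0.00120 to 0.0359) and MCA972 had 10 (0.0658 CPM, 0.0316 to 0.121). The mean of MCA969 was 738 times the pooled level of MCA972, with limits of 402 and 1540 from the counting error of MCA972 alone. For MCA943 the ratio was 579.6 (315 to 1209) and for MCA948 226 (123 to 470.3). Against MCA970, with its 2 counts, the lower limits of the same interval were 1064 for MCA943, 414 for MCA948 and 1356 for MCA969.

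The remaining mesothelial genes were not detected above a few counts. Wt1, a transcription factor of mesothelium, had at most 5 counts in any tumor and 0 in 18 of 30. Upk3b had at most 5 counts and 0 in 18 tumors, and Upk1b at most 16 counts and 0 in 16. The 16 Upk1b counts were in the MCA969 tumor a-1G and correspond to 0.446 CPM. Lrrn4 and Muc16 had no more than 1 count in any tumor. A count of 0 allows up to 0.0907 CPM on average over the MCA970 tumors and 0.0792 over the MCA972 tumors, for counting error only. The name mesothelial therefore described Msln alone in these tumors, and in MCA943 it was present beside low levels of Krt18, Krt19 and Krt7.

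As a description of how much of their variation lay between lines, line membership held 98.3% of the variance of Krt18 in log2 CPM, 97.8% for Msln, 94.8% for Krt8, 70.5% for Krt7 and 47.6% for Krt19, beside a median of 75.03% over the genes past the filter. The distance between the highest and the lowest line mean was 11.12 for Krt8 on the log2 scale, 9.42 for Msln and 8.44 for Krt18, beside a median of 1.15. Krt7 spanned 1.70 and Krt19 2.44.

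The numbers in the library names fall into 3 consecutive series, called library sets here. No label says whether a set was prepared or sequenced together, and the sample indices in the same names cross the sets. Set 1 held 6 MCA969 and 4 MCA972 tumors, set 2 held 2 MCA948, 2 MCA969 and 6 MCA970 tumors, and set 3 held 4 MCA943 and 6 MCA948 tumors. The MCA969 tumors of set 2 were W-1D and W-2D, those whose sensitivity label differs. They had both the lowest and the highest Krt8 and Krt18 of the line, with 209 and 625.02 CPM of Krt8 and 135 and 557 of Krt18. In set 1 alone, Krt8 in MCA969 was 374 ± 42.3 CPM and Krt18 225 ± 31.6 (SD, n = 6), and in the MCA972 tumors of the same set Krt8 was 0.173 ± 0.123 and Krt18 0.636 ± 0.152 (SD, n = 4). Within set 2, Krt18 was 76.2 and 91.9 CPM in the MCA948 tumors and 7.64 ± 1.598 (SD, n = 6) in MCA970, below both MCA969 tumors. Within set 3, Krt18 was 94.5 ± 30.9 CPM in MCA948 (SD, n = 6) against 3.03 ± 0.598 in MCA943 (SD, n = 4). The order of the lines that shared a set was thus the same for Krt18 as over all tumors. Msln differed between sets: in MCA948 it was 22.96 and 34.2 CPM in set 2 and 10.3 ± 5.27 (SD, n = 6) in set 3, and in MCA969 it was 66.3 and 88.7 in set 2 and 39.0 ± 14.4 (SD, n = 6) in set 1. Krt19 in MCA948 was 2.97 ± 1.54 CPM in set 2 (n = 2) and 0.803 ± 0.705 in set 3 (n = 6). MCA943 shared no set with MCA969, MCA970 or MCA972, and MCA972 none with MCA948 or MCA970, so those pairs have no comparison within a set.

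Whether the genes varied together among tumors of a single line was asked in the lines with at least 6 tumors, over the genes with a mean of at least 10 counts there. This gave 15 pairs in MCA948, MCA969 and MCA970, each tested by a two-sided exact permutation test of log2 CPM, of which 8 had a positive r, with a median r of 0.01. Krt8 and Krt18 in MCA969 had a Pearson r of 0.94 (exact permutation p = 0.00253, adjusted 0.0379) and a Spearman rho of 0.81 (exact permutation p = 0.0218, adjusted 0.163). The 2 tumors farthest from the median of Krt8 were W-1D and W-2D, and without them, in the 6 tumors of set 1, r was 0.79 (exact permutation p = 0.0569, adjusted 0.625). With any 1 MCA969 tumor left out r was 0.931 to 0.957, and the adjusted p stayed under 0.05 only without W-R or without a-2D. In MCA948, where the excess of Krt18 was large, the same pair had an r of 0.50 (exact permutation p = 0.212, adjusted 0.455) and an r of -0.26 without its 2 farthest tumors. Krt19 and Msln in MCA948 had an r of 0.75 (exact permutation p = 0.0317, adjusted 0.238) and of 0.48 without the 2 farthest. The other 12 pairs had unadjusted exact permutation p-values of at least 0.0580.

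The title letters gave a comparison within lines that the choice of genes did not use. It was partly tied to library set: both MCA969 tumors of set 2 were W, and both MCA948 tumors of set 2 were a. Of 16557 genes tested over the 26 tumors of the 4 lines with both letters, 45 (0.272%) passed an adjusted p of 0.05 by edgeR's quasi-likelihood test, and 1216 had an unadjusted p under 0.05. None of the 5 genes tested was among them: 0 had an adjusted p under 0.05 and 0 an unadjusted p under 0.05. The log2 fold change of W over a was 0.26 ± 0.17 (SE) for Krt18 with an adjusted p of 0.845 by edgeR, 0.04 ± 0.36 for Krt8, 0.14 ± 0.26 for Krt7, -0.10 ± 0.45 for Krt19 and 0.01 ± 0.31 for Msln, the last 4 with adjusted p-values of at least 0.983. The pooled Msln value averages differences of opposite sign. W minus a in mean log2 CPM was 0.66 in MCA969, 0.45 in MCA970, -0.23 in MCA948 and -0.40 in MCA943. In MCA969 and MCA948 the part of the letter cannot be told apart from that of the set. Within MCA948, Krt18 was 108 ± 28.8 CPM in the W tumors and 75.5 ± 11.9 in the a tumors (SD, n = 4 each), which overlapped. A letter effect that differed between lines was called for 3 genes (0.0181%) and for 0 of these 5, and 1701 genes and 0 of these 5 had an unadjusted p under 0.05 for it. DESeq2 likewise called 0 of the 5 for the letter.

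**Figure D3:**
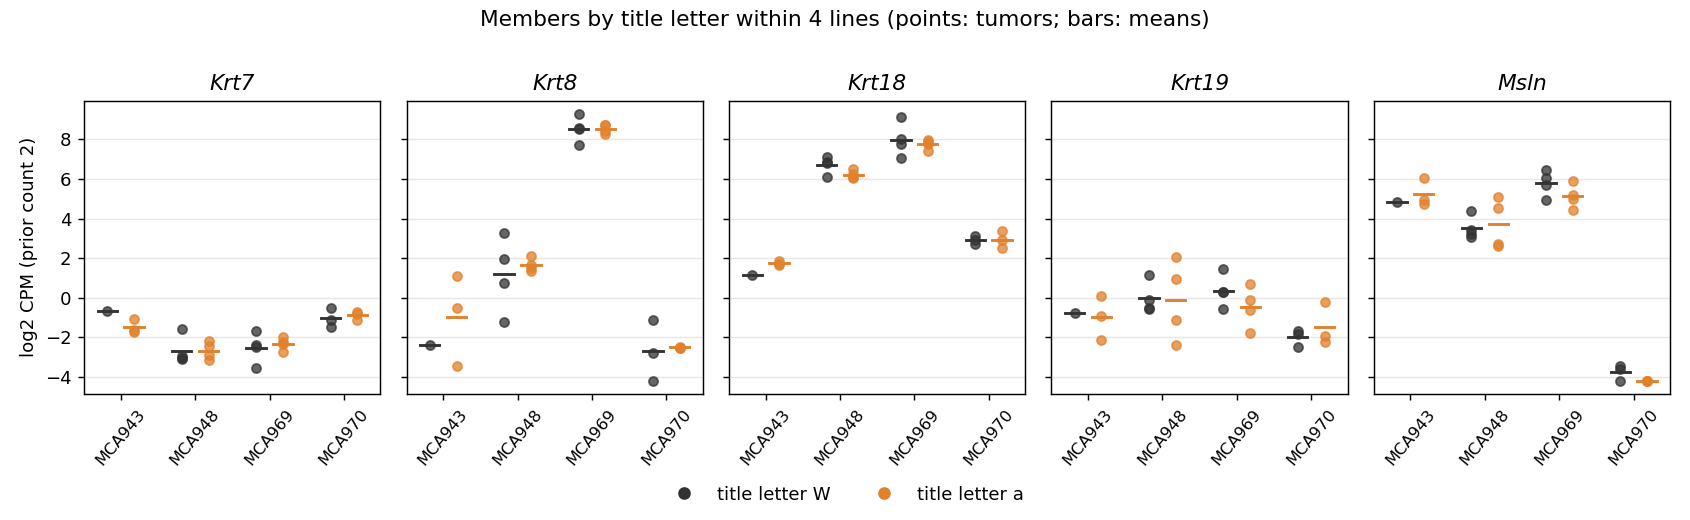
Levels of the 5 genes past the filter by title letter (dark: W; orange: a) in the 4 lines that hold both, as log2 CPM with a prior count of 2. Points are tumors and bars are means, and MCA943 has a single W tumor. In MCA948 the Krt18 levels of the W tumors (69.0 to 138 CPM) overlap those of the a tumors (65.4 to 91.9 CPM).

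Krt8 and Krt18 stood alone in their stretch of chromosome 15. From Krt7 to Krt18 the annotation holds 25 protein-coding keratin genes, of which 2, Krt8 and Krt18, reached a mean of 1 CPM in any line. In 14 of the 25 no tumor had more than 3 counts. Apart from those 2, the highest line mean was 0.554 CPM, for Krt76 in MCA969. Krt5 and Krt6a, keratins of stratified epithelium, were found in single MCA969 tumors: Krt5 was 2.80 CPM in a-1D and at most 0.0304 in the other 7, and Krt6a was 1.23 CPM in a-1D, 1.78 in a-2D and at most 0.0480 in the other 6. Krt76 and Krt6a were picked after their values were seen.

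**Figure D4:**
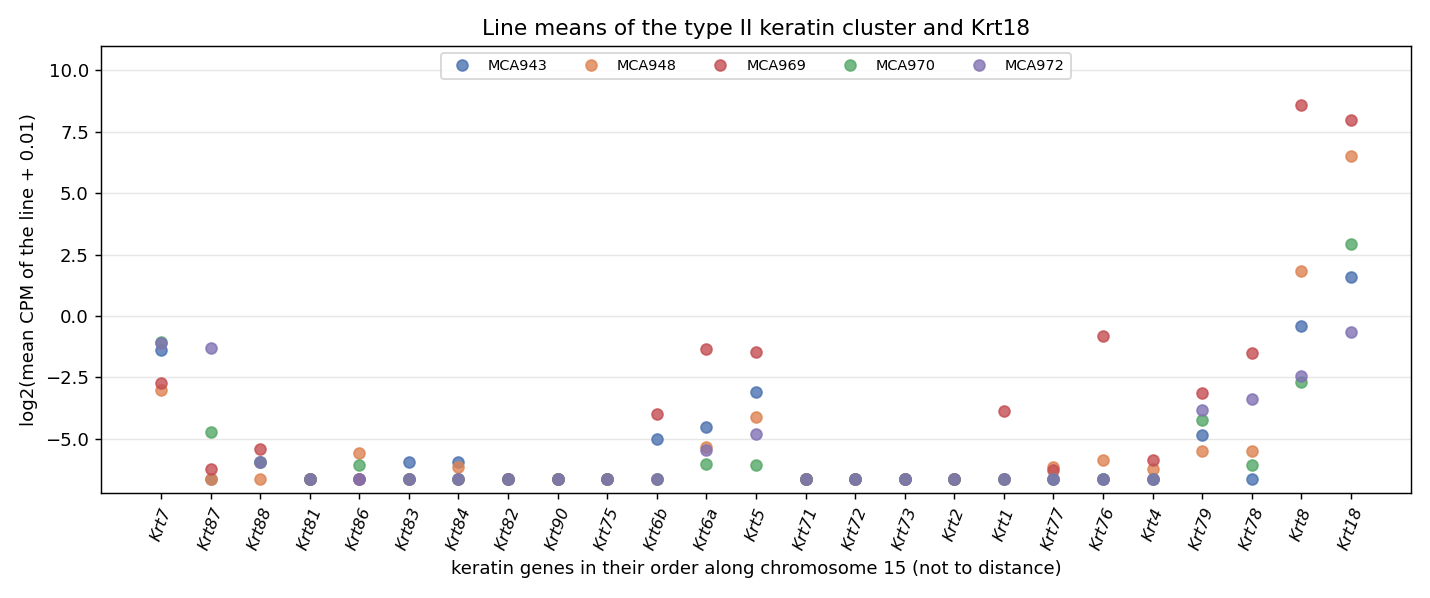
Mean level of the 25 protein-coding keratin genes from Krt7 to Krt18 in each line, in their order along the chromosome, as log2 of the mean CPM plus 0.01. Points of lines with the same value hide each other at the bottom of the scale. The rest of the cluster stays under 1 CPM, and Krt8 and Krt18 rise above it at the right end, in a different set of lines each.

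Other genes of the keratin network and of epithelium were compared over the lines with edgeR's quasi-likelihood test, each line against the mean of the other 4, and a gene was called where its adjusted p was under 0.05 and its log2 fold change was 1 or more in size. In MCA969, 9.8% of all tested genes were called higher and 5.36% lower. Of 12 other keratins, 5 were tested and 3 were called higher in MCA969: Krt20, a keratin of intestinal and urothelial cells (log2 fold change 4.04 ± 0.48, SE, adjusted p = 3.88e-08), Krt23 (4.04 ± 0.50, adjusted p = 1.56e-07) and Krt16, a keratin of activated epidermis (2.496 ± 0.33, adjusted p = 2.43e-07). A gene could pass the filter through counts in a single line, and the lists were chosen with earlier results known, so these counts are a description. Without the filter on low counts 8 were called. Krt20 reached 17.2 CPM in the tumor a-2D and lay between 1.19 and 7.55 in the other MCA969 tumors, while Krt23 did not exceed 0.548. In MCA948, with 4.87% of genes called higher and 16.5% lower, Krt23 was higher (2.91 ± 0.56, adjusted p = 5.10e-05) and Krt16 lower (-3.19 ± 0.53, adjusted p = 4.96e-06). MCA943 had 11.9% of genes called higher and 11.7% lower. Krt20 was lower there (-2.69 ± 0.92, adjusted p = 0.0123), and Krt23, also called lower, had 0 counts in each of its 4 tumors. Neither was called in MCA943 with the library set in the model. The Krt23 fold changes of MCA948 and MCA969 are taken against a mean that includes MCA943, so their sizes depend on the prior count. No keratin of the list was called in MCA970 or MCA972.

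Desmosomes and plakins anchor keratin filaments at the membrane. Of 11 such genes tested, 6 were called higher and 0 lower in MCA969, with a median log2 fold change of 1.79 beside 0.04 over all genes. Desmoplakin (Dsp), the linker between desmosomes and keratins, was at 5.42 ± 3.26 CPM in MCA969 (SD, n = 8) and at most 0.605 on average elsewhere (5.09 ± 0.34 on the log2 scale, SE, adjusted p = 3.02e-13). In the MCA969 tumor W-2D, with the highest Krt8 and Krt18, Dsp was lowest, at 0.743 CPM. Periplakin (Ppl) was called higher both in MCA969 (4.39 ± 0.34, adjusted p = 9.29e-12) and in MCA972 (5.61 ± 0.36, adjusted p = 2.50e-13), the line with the least Krt18. Plakophilin 1 (Pkp1) was called higher in MCA972 (4.41 ± 0.27, adjusted p = 5.09e-14), where 10.9% of genes were higher and 6.03% lower. The desmosomal cadherin Dsg2 was called higher in MCA969 (3.44 ± 0.53, adjusted p = 2.84e-06). In MCA943, 2 of the 11 were higher and 5 lower, and in MCA970, where 11.5% of genes were higher and 5.76% lower, 1 was higher and 4 lower. MCA948 had 1 higher and 3 lower, and MCA972 2 higher and 3 lower. Jup, plakoglobin, chosen after its values were seen, was highest in MCA943 at 212 ± 21.4 CPM (SD, n = 4), against 52.6 ± 14.95 in MCA969 (n = 8).

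Among 16 genes of epithelial identity 9 were tested, and in MCA969 7 were called higher and 1 lower. Over all genes, 9.8% were called higher and 5.36% lower in MCA969, and 4.87% to 16.5% in either direction over the 5 lines. Under the alternative settings 5 to 10 of the list were called higher in MCA969. As for the keratins, a gene could pass the filter through a single line, so these counts are a description. Occludin (Ocln), a tight junction protein, was the tested gene whose profile over the 30 tumors was nearest to that of Krt18, and it was higher in MCA948 (3.49 ± 0.27, SE, adjusted p = 1.84e-12) and in MCA969 (3.75 ± 0.26, adjusted p = 8.19e-13). The adhesion molecule Epcam was at 4.83 ± 2.498 CPM in MCA969 (SD, n = 8; log2 fold change 3.39 ± 0.24, SE, adjusted p = 1.31e-12), and the epithelial transcription factor Elf3 was also higher there (3.42 ± 0.34, adjusted p = 1.33e-09). Grhl2, another epithelial transcription factor, was higher in MCA948 (2.58 ± 0.29, adjusted p = 5.84e-09) at 0.425 ± 0.134 CPM (SD, n = 8). In MCA943 1 was higher and 7 lower. The higher gene was Cdh1, E-cadherin, chosen after its values were seen, at 4.57 ± 1.51 CPM (SD, n = 4); in MCA969, where it was the gene called lower, it was at 0.318 ± 0.208 (n = 8). Neither Cdh1 call was made with the library set in the model. In MCA948 3 were higher and 5 lower, in MCA970 2 and 1 (0 higher with the library set in the model), and in MCA972 1 and 2. The splicing factor Esrp1, used as a defining gene of epithelium, had at most 3 counts in any tumor.

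Of 16 other genes expressed in mesothelium 13 were tested, and their counts by line differed from the pattern of Msln. Bnc1 is an exception in sign: it was above the mean of the other lines in the 3 lines with Msln (log2 fold change 0.71 ± 0.17 in MCA943, 0.42 ± 0.14 in MCA948 and 0.62 ± 0.13 in MCA969, SE, none called) and was called lower in MCA970 (-1.64 ± 0.17, adjusted p = 3.39e-09). The zinc finger gene Bnc1, the transcription factor Tbx18 and podoplanin (Pdpn), genes also expressed outside mesothelium, were found in every line, with line means of 5.28 to 19.4 CPM, 23.6 to 43.1 and 123 to 334. Calretinin (Calb2) and Nkain4, more restricted to mesothelium, had at most 2 counts in any tumor, and Tcf21 had 0. The list had 5 genes higher and 1 lower in MCA969, 2 and 6 in MCA943, 2 and 3 in MCA948, 5 and 2 in MCA970, and 2 and 2 in MCA972. Over all genes, 4.87% to 16.5% were called in each line and direction. The transcription factor Gata4 was higher in MCA969 (5.56 ± 0.51, SE, adjusted p = 7.95e-10), at 2.43 ± 1.96 CPM (SD, n = 8), as was the retinoic acid enzyme Aldh1a2 (3.25 ± 0.44, adjusted p = 2.80e-07). Gata6 was lower in MCA943 (-6.41 ± 0.51, adjusted p = 9.66e-12) and between 10.1 and 22.6 CPM on average elsewhere. Rspo1, an activator of Wnt signalling, was highest in MCA972 (4.02 ± 0.37, adjusted p = 9.38e-10), and Rspo1 and Gata4 had 0 counts in each MCA943 tumor. MCA943 is part of the mean set against MCA969 and MCA972, so the sizes of these Gata4 and Rspo1 fold changes depend on the prior count.

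Of 12 family relatives of the mesothelial genes (other uroplakins, mucins and leucine-rich repeat proteins) 6 were tested, with 2 higher and 0 lower in MCA969, 1 and 0 in MCA943, 1 and 3 in MCA948, 1 and 1 in MCA970, and 1 and 1 in MCA972. Over all genes, 4.87% to 16.5% were called in each line and direction, and with so few genes tested most of these counts do not stand apart from that share. Lrrn4cl, named for its likeness to Lrrn4, was higher in MCA943 (1.98 ± 0.14, SE, adjusted p = 4.86e-13) and in MCA969 (1.25 ± 0.12, adjusted p = 4.15e-10) and lower in MCA948 and MCA972, while Lrrn4 itself was absent. Lrrn1 was higher in MCA969 (2.65 ± 0.75, adjusted p = 0.00363) and in MCA972, Lrrn3 lower in MCA948 (-2.15 ± 0.25, adjusted p = 1.74e-08), and Upk1a lower in MCA970 (-1.89 ± 0.29, adjusted p = 1.81e-06) and higher in MCA948. Of 8 other intermediate filament genes 7 were tested, and 0 to 1 were called in either direction in each line. Synemin (Synm) was lower in MCA943 (-2.69 ± 0.59, adjusted p = 0.000249) and higher in MCA969 and MCA970, and nestin (Nes) lower in MCA972 (-1.64 ± 0.23, adjusted p = 7.61e-07). Vimentin (Vim), the filament of mesenchymal cells, was abundant in every line, from 3513 ± 448 CPM in MCA970 (SD, n = 6) to 7747 ± 353 in MCA943 (n = 4), with 4754 ± 328 in MCA969 (n = 8).

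**Figure D5:**
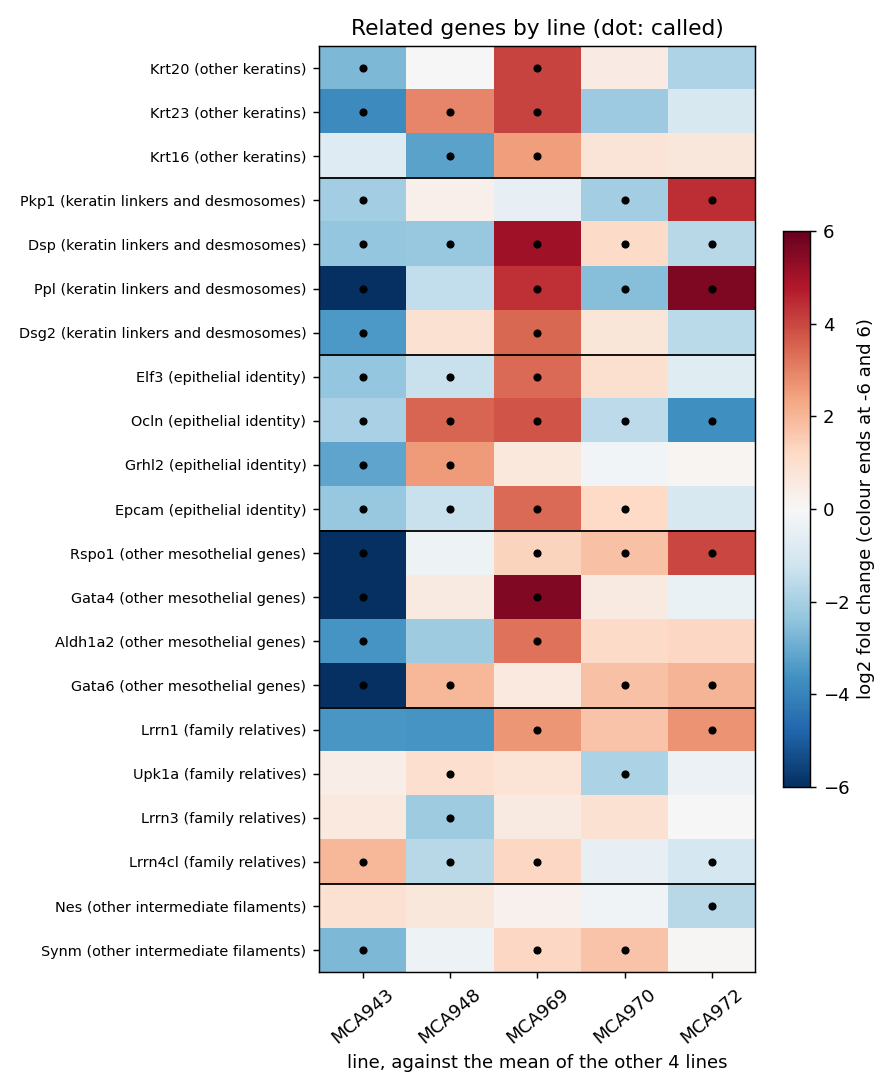
Log2 fold change of each line against the mean of the other 4 for the genes named from 6 lists, with dots where a gene was called; colors end at -6 and 6. For Krt23, Rspo1 and Gata4 in MCA943, where no tumor had a count, the color depends on the prior count. MCA943 is part of the mean set against each other line, so the other colors of these genes depend on it too. Most genes of the upper lists are highest in MCA969, with exceptions such as Pkp1 and Ppl in MCA972 and Grhl2 in MCA948.

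The fibrosarcoma label was checked with marker lists. The 8 fibroblast markers summed to between 5307 and 56449 CPM in every tumor, with the lowest sums in MCA969 (5307 to 13142) and MCA948 (7539 to 12747), and all 8 passed the filter. In MCA969 4 of them were called lower, Col1a1 and Col1a2 among them, and 2 higher, Lum and Thy1. In MCA948 6 were lower, and in MCA943 5 were higher. Over all genes, 5.36% were lower and 9.8% higher in MCA969, 16.5% lower in MCA948 and 11.9% higher in MCA943. Col1a1 and Col1a2 were called lower in both lines with high Krt18, and the part of this in the keratin levels was not tested. The 10 keratinocyte markers summed to 7.89 to 17.9 CPM in MCA969, 9.90 to 11.6 in MCA943, 5.602 to 7.24 in MCA948, 4.37 to 5.44 in MCA970 and 4.28 to 5.65 in MCA972. The highest sum was in the MCA969 tumor a-1D, in which Krt14 was 3.01 CPM. In the other 7 MCA969 tumors the defining keratinocyte genes Krt5 and Krt14 were at most 0.0304 and 0.0720 CPM, and Krt8 was between 209 and 625.02. Of 5 keratinocyte markers tested by edgeR's quasi-likelihood test, 2 were higher and 1 lower in MCA969. The higher ones were Lor (log2 fold change 2.74 ± 0.32, SE, adjusted p = 6.36e-08) and Ivl (3.21 ± 0.41, adjusted p = 1.12e-07). Both were also called higher in MCA970. The lower one was Trp63 (-1.89 ± 0.43, adjusted p = 0.000397). Under the alternative settings, 2 to 6 markers of the list were called higher in MCA969.

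Of 6 mammary and glandular genes, Csn3 was highest in MCA943 at 2.13 to 4.29 CPM, and the prolactin receptor gene Prlr reached 35.9 CPM in an MCA970 tumor. Foxa1 had at most 5 counts, and Elf5, Csn2 and Wap had no more than 1 count in a tumor. The 7 leukocyte markers summed to 11.5 to 48.9 CPM in MCA969 and 17.3 to 252 over the other lines, and 4 of the 5 tested were lower in MCA969, as were 5.36% of all genes. The 4 endothelial markers summed to 15.1 to 297 CPM in MCA948 and 247 to 425 in MCA970, where 3 were called higher, or 1 with the library set in the model. Over all genes, 11.5% were called higher in MCA970. The part of these cells in the levels of the keratins was not tested.

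The genes nearest to each member over the 30 tumors were found by the root mean square difference of gene-centred log2 CPM. For Krt8 they were Glt1d1 (1.96), Slc5a7 (2.21) and Wasf3 (2.24), each with line means under 0.09 CPM outside MCA969 and of 7.41 to 19.1 within it; Krt18 was 15th, at 2.66. For Krt18 they were Ocln (1.26), Camkv (1.31) and the noncoding RNA Pvt1 (1.33), and Krt8 came 697th. The values were not scaled, so this distance also grows where 2 genes differ in the size of their spread. Between the highest and lowest line mean Krt8 spanned 11.12 and Krt18 8.44 on the log2 scale, so these ranks do not compare the order of lines alone. For Msln they were Dynap (1.35), Tnfrsf4 (2.18) and Crabp2 (2.41), with Krt18 at 41st. For Krt19 they were Smim1, Abcb11 and Phldb3, at 0.888 to 0.947, and for Krt7 Gstm1, Slc41a3 and Ddah2, at 0.440 to 0.486. No member was among the 3 nearest genes of another.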

How the data were processed

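RNA of 30 tumors was sequenced after removal of CD45+ cells. The authors aligned reads to GRCm38 with STAR 2.5.3a, used Picard and counted reads on genes with featureCounts (1.5.2 in the submitters' processing notes); the strand setting is not given in the sources used here. The deposited values are raw counts for 48440 genes, between 27745104 and 46537062 per tumor, and per the file headers reads sharing a unique molecular identifier had been collapsed. Gene names and positions came from the GENCODE annotation. The lengths used for values per kilobase were those deposited with the counts.

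Counts were normalized with TMM and filtered by filterByExpr with line as group. A robust edgeR quasi-likelihood fit with line as factor (16862 genes, biological coefficient of variation 0.221) compared each line with the mean of the other 4; genes were called where the Benjamini-Hochberg adjusted p was under 0.05 and the log2 fold change was 1 or more in size. Title letters were compared with line as covariate in 26 tumors (16557 genes). The SE given with a log2 fold change is its absolute value divided by the square root of the test's F statistic. It is thus derived from the test, and is unreliable where the fold change or the counts are near 0. Correlations used log2 CPM with a prior count of 2. A count of 0 was taken to allow 3 counts. Labels do not say that the tumors of a line came from separate cell cultures, so p-values measure the spread between these tumors. The main fits did not treat the codes at the end of the titles as pairing tumors. Deviations of same-coded tumors of different lines had a median correlation of 0.01 (62 pairs), against -0.01 for other codes (290 pairs). A unit shared by same-coded tumors without an effect on expression would not be seen in this way.

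The 10 genes and 11 lists were chosen with earlier results of these data known. Named genes are the 10 members, up to 4 genes of each list with the largest absolute log2 fold change among those called, the 3 nearest genes of each member past the filter, and defining cell type markers; Eppk1 of the desmosome list was not matched. On simulated data with 200 genes changed, the line comparison of MCA969 recovered 200 of 200 shifted by 2 on the log2 scale, with 1 false call among 16426 genes. The letter comparison recovered 175 of 200 shifted by 1, with 5 false calls among 16169, and 196 of 200 shifted by 2, with 11 among 16203. The changed genes had a mean of at least 10 counts and the other genes did not differ between lines. The simulation therefore does not cover genes of few counts or the many line differences of these tumors. Alternatives were DESeq2, its size factors, no filter, no fold threshold, adding library set (inferred from series of library numbers) or title code, other scales for correlations, and leaving out tumors. Fits used edgeR 4.0.16 with limma 3.58.1 and DESeq2 1.42.0 under R 4.3.3. Other steps used scipy 1.17.1, pandas 2.3.3 and numpy 2.4.6 under Python 3.11.15, and figures matplotlib 3.10.9.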

Additional observations from a re-analysis of the deposited data

Results flagged for a closer look

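In 2 of 18 combinations of a gene and a line a single tumor lay far from the others by Dixon's test, which chance flags in about 1 of 20 groups. Krt18 in the MCA969 tumor W-2D was 557 CPM, above the other 7 tumors of the line, which ranged from 135 to 256. This tumor also had the highest Krt8 of the line. Among the MCA969 tumors it had the lowest summed fibroblast markers (5307 CPM) and leukocyte markers (11.5 CPM), and the highest summed epithelial identity genes (24.9 CPM). The part of cell composition in its keratin levels was not tested. Krt19 in the MCA970 tumor a-2G was 0.798 CPM, or 33 counts, above 0.122 to 0.257 CPM in the other 5.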

How the results depend on the processing

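Library depth leaves genes of a few counts, among them Wt1, Upk3b, Upk1b, Lrrn4 and Muc16, without a usable order of lines. The genes called for MCA943, MCA948, MCA969, MCA970 and MCA972 numbered 3987, 3605, 2556, 2904 and 2851, and rose to 10545, 11602, 9610, 10280 and 8649 without the fold threshold and to 4325 for MCA972 without the filter on low counts. With the title code as a replicate block they were 3933, 3539, 2541, 2899 and 2672, and the letter comparison called 39 genes, with 0 of the 5 members, against 45; DESeq2 called 94 for the letter. With the library set, the effect of the letter differed between lines for 0 genes in place of 3, and the letter difference of Krt19 was 0.42 in place of -0.10; without the 2 MCA969 tumors of opposite sensitivity label that of Msln was -0.27 in place of 0.01. Leaving out 1 tumor at a time gave letter differences of -0.014 to 0.24 for Krt7, -0.32 to 0.18 for Krt8, -0.31 to 0.25 for Krt19 and -0.14 to 0.25 for Msln. The number of correlated pairs, 1, became 0 without the 2 tumors farthest from the median and 0 without the 2 MCA969 tumors, and was 0 to 1 when 1 tumor was left out. Without the 2 farthest tumors r was -0.26 for Krt8 and Krt18, 0.58 for Krt8 and Msln and 0.17 for Krt18 and Msln in MCA948, and -0.39 for Krt7 and Krt18 and -0.047 for Krt18 and Krt19 in MCA970, each of the opposite sign to that over all tumors. With a prior count of 0.5, r of Krt7 and Krt19 in MCA970 was 0.016 in place of -0.012. With 1 tumor left out, r ranged in MCA948 from -0.35 to 0.28 for Krt8 and Msln and from -0.35 to 0.061 for Krt18 and Msln, in MCA969 from -0.71 to 0.38 and from -0.80 to 0.34 for the same pairs, and in MCA970 from -0.27 to 0.23 for Krt7 and Krt18, from -0.61 to 0.48 for Krt7 and Krt19 and from -0.17 to 0.75 for Krt18 and Krt19. The causes were not tested. The order of lines by mean Krt8, Krt18 and Msln is a description and has no call to lose.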
